A study of Drosophila melanogaster with 2 samples.

Results

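The proteasome subunit genes of Drosophila melanogaster were read in a map of the chromatin-associated protein CG1663. They were the protein-coding genes of the Ensembl annotation whose symbol begins with Prosalpha, Prosbeta, Rpn or Rpt, the last pair followed by a digit, and 48 of the 13945 protein-coding genes on 6 chromosome arms met this rule. Chromatin immunoprecipitation with sequencing (ChIP-seq) had been done with an antibody to GFP on whole pupae, aged 24 hours, of a transgenic line that carries CG1663 with GFP joined to its C-terminal end. Both sexes were pooled, and 2 biological replicates, numbered 1 and 3, made up the 1 group, with no other genotype, treatment or time. An untagged line was not analysed here, and the labels do not state the promoter that drives the fusion. A whole pupa mixes many cell types, and a site occupied in few of them may give no peak.

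The proteasome degrades proteins marked with ubiquitin. Its core particle stacks rings of alpha subunits (Prosalpha genes), which form the gate, on rings of beta subunits (Prosbeta genes), which hold the proteolytic sites. The regulatory particle caps the core: its Rpt subunits are the ATPases that unfold substrates, and its Rpn subunits recognise ubiquitin, remove it or form the scaffold and lid. Flies also carry extra copies of several subunits, with a T or R in the symbol, and some T copies are known to work in the testis.

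Of the 48 genes, 25 encode core subunits and 23 regulatory subunits. Symbols without T or R, called main subunits here, numbered 32 (14 core, 18 regulatory), and 16 were paralogs (11 core, 5 regulatory). A gene is called bound in a list when a peak summit fell no more than 500 bp from an annotated start of one of its transcripts. Of the 4 deposited lists, those of replicate 1, replicate 3 and the pooled reads held 30000 peaks each. The fourth, thresholded by the irreproducible discovery rate (IDR), held 9657 peaks, which proved to be the strongest 9657 of the pooled list, base for base. Signal is the authors' own value of each peak, so it is used only to rank peaks within 1 list. The lists hold no read counts, and the depth of each library is unknown.

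The sequences beneath the IDR summits are shown first because they are where the tagged protein was mapped at these genes. Each line holds 101 bases centred on the summit, read 5′ to 3′ on the strand of the gene, and the capital letter is the summit base. Shown are 8 of the 10 windows, from the highest signal to the lowest, and their positions on dm6 follow the lines.
Rpn3: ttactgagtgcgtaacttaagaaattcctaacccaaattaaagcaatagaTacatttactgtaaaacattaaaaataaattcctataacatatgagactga
Rpn5, first summit: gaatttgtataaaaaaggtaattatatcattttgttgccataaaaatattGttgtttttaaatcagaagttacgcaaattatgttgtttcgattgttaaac
Rpn11: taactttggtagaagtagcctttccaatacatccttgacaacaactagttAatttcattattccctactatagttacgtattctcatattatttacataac
Rpn5, second summit: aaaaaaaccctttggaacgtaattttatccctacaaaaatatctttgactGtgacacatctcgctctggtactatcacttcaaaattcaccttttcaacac
Prosalpha2: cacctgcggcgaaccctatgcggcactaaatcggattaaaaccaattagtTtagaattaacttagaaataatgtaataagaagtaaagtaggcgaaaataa
Prosalpha4: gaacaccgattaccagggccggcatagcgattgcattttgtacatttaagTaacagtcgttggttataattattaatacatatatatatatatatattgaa
Rpn2: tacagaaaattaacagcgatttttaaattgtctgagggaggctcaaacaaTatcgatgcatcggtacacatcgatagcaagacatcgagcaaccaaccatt
Rpn12: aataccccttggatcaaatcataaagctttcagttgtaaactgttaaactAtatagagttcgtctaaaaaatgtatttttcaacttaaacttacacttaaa
The windows lie at chr2L:19051739-19051839, chr3R:5789202-5789302, chr2L:5059923-5060023 (minus strand), chr3R:5789402-5789502, chr3R:12431137-12431237, chrX:16275924-16276024, chr3R:29153427-29153527 and chr3L:16582840-16582940, and all but that of Rpn11 are on the plus strand. They are rich in A and T. Over all 10 IDR summits at proteasome genes the GC content had a median of 30.2% and ran from 22.8% to 39.6%, and over the 2661 IDR summits at protein-coding starts the median was 31.7%.

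In the IDR list 9 of the 48 genes were bound, which is 18.8% (exact 95% interval 8.95 to 32.6), and 21.5% of all protein-coding genes were bound in the same list. The share for the family as a whole was therefore near the background. All 9 were main subunits, so that 28.1% of the 32 main subunits were bound (13.7 to 46.7). No paralog was bound, and 0 of 16 allows a share of up to 18.8% by the limit of 3 counts. These intervals cover counting error only.

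Replicates gave very different counts for the main subunits. Replicate 1 had a summit at 9 of 32, or 28.1% (13.7 to 46.7), against a background of 31.3%. Replicate 3 had one at 25 of 32, or 78.1% (60.0 to 90.7), against a background of 45.1%. The mean of the replicates was 53.1% ± 35.4 (SD, n = 2) for main subunits and 38.2% ± 9.74 (SD, n = 2) for all protein-coding genes. In replicate 1 the main subunits were thus bound about as often as other genes, and in replicate 3 the counting interval lay above the background of all genes. Genes with an opposite-strand protein-coding start within 500 bp had a higher share in replicate 3, 68.3%, which lay inside that interval. Of the main subunits, 21 had such a start, and 81.0% of these were bound (58.1 to 94.6). Of the 11 without one 72.7% were bound (39.0 to 94.0), beside 36.1% of all genes without such a start. Both lists have the same number of peaks, and the part that depth or read quality plays in the gap between the replicates was not tested.

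All 9 genes bound in replicate 1 were also bound in replicate 3, and 88.0% of the 4364 protein-coding genes bound in replicate 1 were, so this share was near the background. Counted over every gene, 9 of the 48 (18.8%) were bound in both replicates, beside 27.5% of all protein-coding genes. Read from the other side, 9 of the 26 proteasome genes bound in replicate 3, or 34.6%, were also bound in replicate 1, and 61.1% of all 6285 protein-coding genes bound in replicate 3 were. The 16 main subunits bound in replicate 3 alone had best ranks there from 5166 to 23172, with a median of 10786. The 9 bound in both ran from 1987 to 28915 with a median of 5336. The medians for all protein-coding genes were 11940 in replicate 3 alone and 5548.5 in both, so the ranks of the proteasome genes were close to those of other genes in either class. The pooled list held 14 of the 32 main subunits, 43.8%, against a background of 36.3%.

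**Figure D1:**
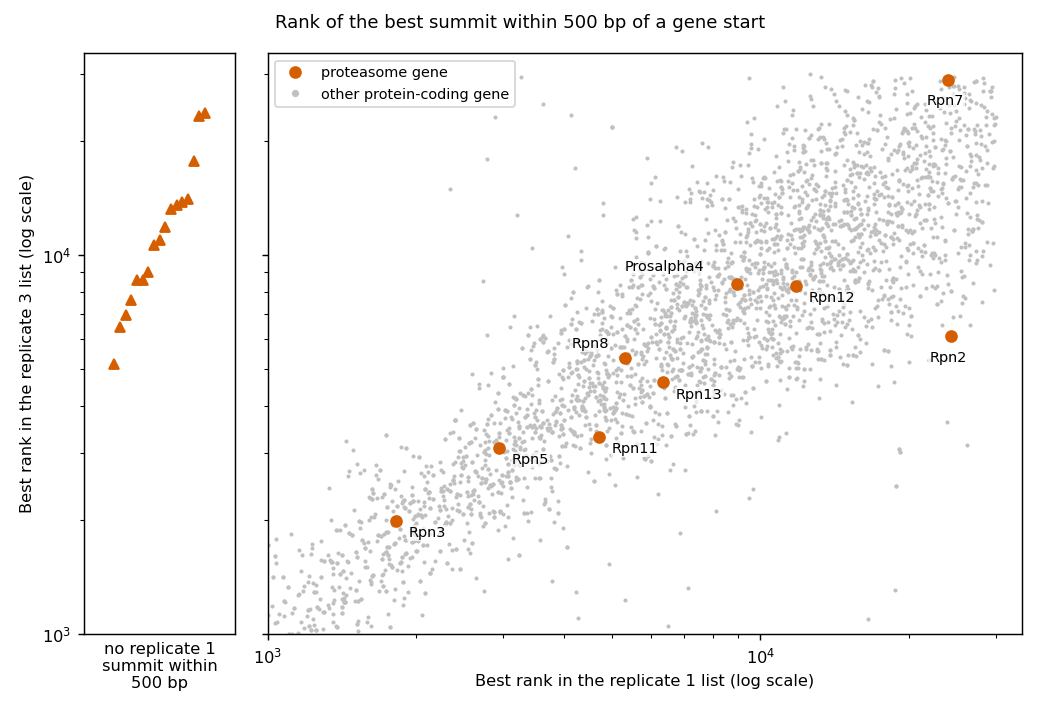
Rank of the best summit within 500 bp of a gene start in the list of replicate 1 (horizontal axis) and replicate 3 (vertical axis), both on log scales from 1000, where rank 1 is the highest signal. Orange circles are the 9 proteasome genes bound in both lists, grey points are other protein-coding genes (those ranked better than 1000 are outside the axes), and orange triangles at the left, spread sideways only to be seen, are the 17 proteasome genes with no replicate 1 summit within 500 bp. Rpn3 lies nearest the origin, Rpn2 lies off the diagonal with rank 24350 in replicate 1 and 6098 in replicate 3.

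By class of subunit, the non-ATPase subunits of the regulatory particle were bound most often. Of the 12 main Rpn genes, 7 were bound in the IDR list (58.3%, 27.7 to 84.8), 8 in replicate 1 and all 12 in replicate 3 (73.5 to 100% by the interval). Of the 6 Rpt ATPase genes, 0 were bound in the IDR list, 0 in replicate 1 and 4 in replicate 3. By the limit of 3 counts, 0 of 6 allows a share of up to 50%. The 7 main alpha genes gave 2, 1 and 4 in the same order, and the 7 main beta genes gave 0, 0 and 5. For 0 of 7 the limit is 42.9%. Beside these counts, 21.5% of all protein-coding genes were bound in the IDR list, 31.3% in replicate 1 and 45.1% in replicate 3. In the IDR list the interval of the Rpn genes overlapped that of each other class. These were 3.67 to 71.0% for alpha, 0 to 41.0% for beta and 0 to 45.9% for Rpt genes.

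Put by particle, 2 of 14 main core genes (14.3%, 1.78 to 42.8) and 7 of 18 main regulatory genes (38.9%, 17.3 to 64.3) were bound in the IDR list. These intervals overlap. The replicates kept the same order, with 1 of 14 core and 8 of 18 regulatory genes in replicate 1 and 9 of 14 and 16 of 18 in replicate 3. Over all protein-coding genes the shares were 31.3% and 45.1%. Main regulatory genes had more than 1 start more often than main core genes, and so more windows. The part of this in the order was not tested. With paralogs included the IDR counts were 2 of 25 for the core and 7 of 23 for the regulatory particle. No test of the difference was made, since genes are not replicates of a particle.

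**Figure D2:**
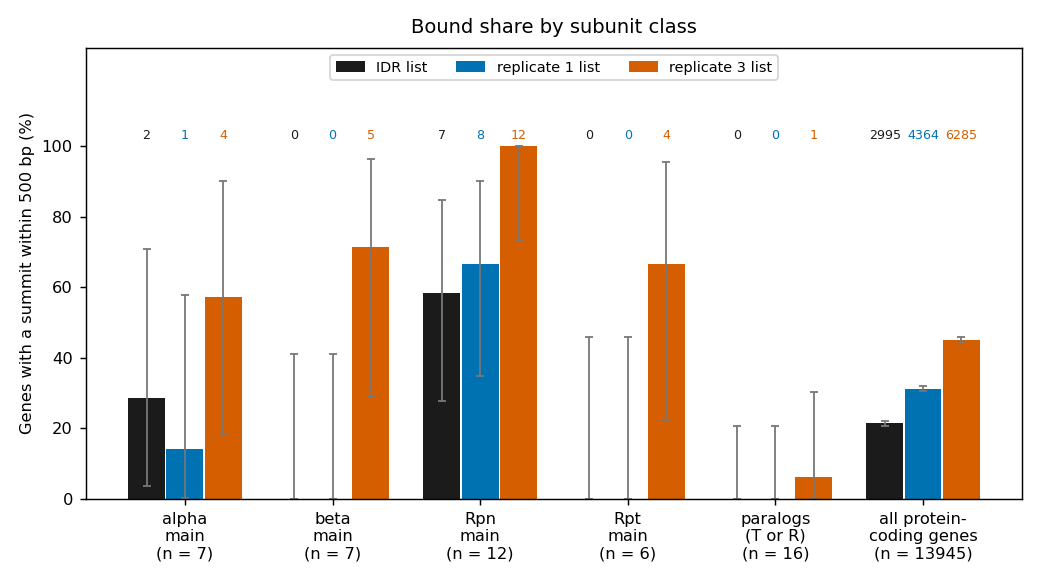
Share of genes in percent with a summit within 500 bp of a start, for each class of proteasome gene and for all protein-coding genes, in the IDR list (black), replicate 1 (blue) and replicate 3 (orange). Bars are shares, error bars exact 95% intervals that cover counting error only, and the numbers above are genes bound; the Rpn genes have the highest bars in each list, with 7, 8 and 12 of 12.

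Rpn3, a subunit of the lid, had the highest signal of the family. Its IDR summit lay 1 bp upstream of the start with a signal of 929 and rank 1841 of 9657, in a peak at chr2L:19051678-19051950. Replicate 1 put it at the same base with rank 1820, and replicate 3 placed it 3 bp upstream with rank 1987. Position and rank were thus close between the replicates. The start of l(2)37Bb on the other strand lay 177 bp from the summit.

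Rpn5, another lid subunit, was the 1 gene with a pair of IDR summits. The first lay 241 bp upstream of the start with a signal of 621 and rank 2993, and the second 41 bp upstream with a signal of 267 and rank 6688. In replicate 1 they were found 236 and 30 bp upstream with ranks 2948 and 10664, and in replicate 3 at 240 and 36 bp with ranks 3099 and 6300. The upstream summit was the stronger in both replicates. Hat1, which encodes a histone acetyltransferase, starts 109 bp away on the opposite strand, between these summits, and the stronger one was nearer to the start of Hat1, at 132 bp, than to that of Rpn5.

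Rpn11, the deubiquitinase of the lid, had an IDR summit 183 bp upstream with a signal of 453 and rank 4103, and no other protein-coding gene starts within 500 bp of that summit. Replicate 1 gave 1 summit 174 bp upstream with rank 4712. In replicate 3 there were 2, at 103 bp with rank 3318 and 304 bp with rank 4803, on either side of the pooled position. The ranks were alike while the positions were not. Rpn8, the structural partner of Rpn11, had its IDR summit 218 bp upstream of its internal start with a signal of 353 and rank 5255. Replicate 1 placed it at 215 bp with rank 5321, and replicate 3 at 224 bp with rank 5336, with a second and weaker summit at 17 bp. The start of Slik, a protein kinase gene, lay nearer to the IDR summit, at 107 bp.

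Rpn13, a ubiquitin receptor of the regulatory particle, had an IDR summit 42 bp upstream with a signal of 348 and rank 5319. Replicate 1 had summits 52 bp upstream with rank 6345 and 345 bp upstream with rank 20672, and replicate 3 at 25 bp with rank 4617 and 268 bp with rank 8009. In both replicates the summit near the start was the stronger. CtsL1, a cathepsin gene, starts 271 bp away on the other strand, and the far summit of replicate 3 was 3 bp from that start.

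Rpn2, a scaffold of the base, showed the largest difference in rank between the replicates among the 9 genes bound in both. Its IDR summit lay 47 bp upstream with a signal of 180.5 and rank 9242. In replicate 1 it was 154 bp upstream with rank 24350, and in replicate 3 there were summits 184 bp upstream with rank 6098 and 35 bp downstream with rank 10404. The deposited −log10 q-value of the replicate 1 summit was low, 0.561, beside 4.31 at Rpn3 in the same list. The IDR position lay between the replicate 3 summits, at neither of them. Slbp, the histone mRNA stem-loop binding protein gene, starts 258 bp upstream on the other strand. The replicate 1 summit and the stronger replicate 3 summit were nearer to the start of Slbp, at 104 and 74 bp. The IDR summit and the weaker replicate 3 summit were nearer to that of Rpn2.

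Rpn12, a lid subunit with no neighbouring start, closed the IDR-bound regulatory genes with a summit 138 bp upstream, a signal of 179.7 and rank 9280. The replicates placed it 125 and 121 bp upstream with ranks 11795 and 8297. Its signal was thus just inside the list, whose lowest value was 170.2.

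The bound genes of the core were both alpha subunits. Prosalpha2 had an IDR summit 134 bp upstream with a signal of 240.4 and rank 7341, but the nearest replicate 1 summit was 12111 bp away. In replicate 3 summits lay 130 bp upstream with rank 6960 and 73 bp downstream with rank 14930. Replicate 1 thus had no summit at this gene, although the pooled peak passed into the IDR list. Prosalpha4 had its IDR summit 296 bp upstream with a signal of 225 and rank 7781. Both replicates had it, 289 and 286 bp upstream with ranks 8953 and 8383, and both had a second and weaker summit 78 and 15 bp upstream with ranks 14113 and 10171. The start of kat80, which encodes a katanin subunit, lay 57 bp from the IDR summit and nearer than that of Prosalpha4.

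Further main subunits were bound only below the IDR threshold. Rpn7, of the lid, was bound in both replicates near the end of the lists, 193 bp upstream with rank 24060 in replicate 1 and 169 bp upstream with rank 28915 in replicate 3. The deposited −log10 q-values of these summits were low, 0.580 and 0.535, beside 4.31 and 4.43 at Rpn3. Prosbeta1, which carries the caspase-like site, Prosbeta7, Rpn9 and Rpt4 were in the pooled and replicate 3 lists but not in replicate 1. Their pooled signals were 88.3 for Prosbeta1, 87.0 for Prosbeta7, 125 for Rpn9 and 47.8 for Rpt4, all below the lowest IDR value of 170.2.

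In replicate 3 alone, 11 more main subunits had a summit. They were Prosalpha5 and Prosalpha6 of the alpha ring, and Prosbeta3, Prosbeta5, which carries the chymotrypsin-like site, and Prosbeta6 of the beta ring. From the regulatory particle came the scaffold Rpn1, the ubiquitin receptor Rpn10, the lid subunit Rpn6 and the ATPases Rpt2, Rpt3 and Rpt5. Rpn6 had the best replicate 3 rank of these, 5166, and Rpt5 followed with 6470. Their nearest replicate 3 summits lay from 132 bp upstream at Prosalpha6 to 13 bp upstream at Rpn1.

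No list had a summit at 7 main subunits. They were Prosalpha1, Prosalpha3, Prosalpha7, Prosbeta2, which carries the trypsin-like site, Prosbeta4, Rpt1 and Rpt6. Around Prosalpha1 and its tandem copy Prosalpha1R, every 36-base word within 500 bp of the start occurs again elsewhere on the 6 arms. How the authors treated reads that match several places is not given in the sources used here, so the lack of a peak at these genes is uncertain. The shares of repeated words were 9.73% at Rpn3, 6.42% at Prosalpha3 and 2.28% at Rpt6, and 0 at every other member.

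Among the 16 paralogs 1 call was made in any list. Prosbeta2R2 had a replicate 3 summit 83 bp upstream with rank 23639, and the start of CG1116 on the other strand was nearer to it, at 46 bp. The other 15 had none: Prosalpha1R, Prosalpha3T, Prosalpha4T1, Prosalpha4T2, Prosalpha6T, Prosbeta2R1, Prosbeta4R1, Prosbeta4R2, Prosbeta5R1, Prosbeta5R2, Rpn12R, Rpn13R, Rpt3R, Rpt4R and Rpt6R. In replicate 3 the interval for paralogs, 0.158 to 30.2%, did not overlap that for main subunits, 60.0 to 90.7%. The share of all protein-coding genes, 45.1%, lay between them. In the IDR list the intervals, 0 to 20.6% and 13.7 to 46.7%, did overlap, beside 21.5% of all protein-coding genes. Promoter layout differed along with this split, since 21 of 32 main subunits but 3 of 16 paralogs had a protein-coding start on the opposite strand within 500 bp. Its part in the result was not tested.

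No gene lay close to the edge of the 500 bp window in the IDR list. The bound gene with the farthest nearest summit was Prosalpha4, at 296 bp, and the unbound gene with the nearest was Prosbeta6, at 1124 bp, followed by Prosbeta4R2 at 1181 bp. Over the 39 unbound genes the nearest IDR summit was a median of 5601 bp away, with 5295 bp for main subunits and 11739 bp for paralogs, and 7755 bp over all unbound protein-coding genes. By these medians unbound paralogs lay farther from an IDR peak than unbound main subunits did.

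Summits sat upstream of the start. The nearest IDR summit was upstream at 9 of 9 bound genes, from 296 to 1 bp away with a median position of -134 bp, and the median over all bound protein-coding genes was -142 bp with 83.1% upstream. Replicate 1 gave a median of -125 bp, beside -113 bp for all bound genes. In replicate 3 the median was -30.5 bp, beside -57 bp, and 25 of 26 bound proteasome genes (96.2%) had a summit within 150 bp, beside 69.1% of all bound genes. Positions in replicate 3 were thus closer to the start than in the other lists, for proteasome genes and for all genes alike.

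**Figure D3:**
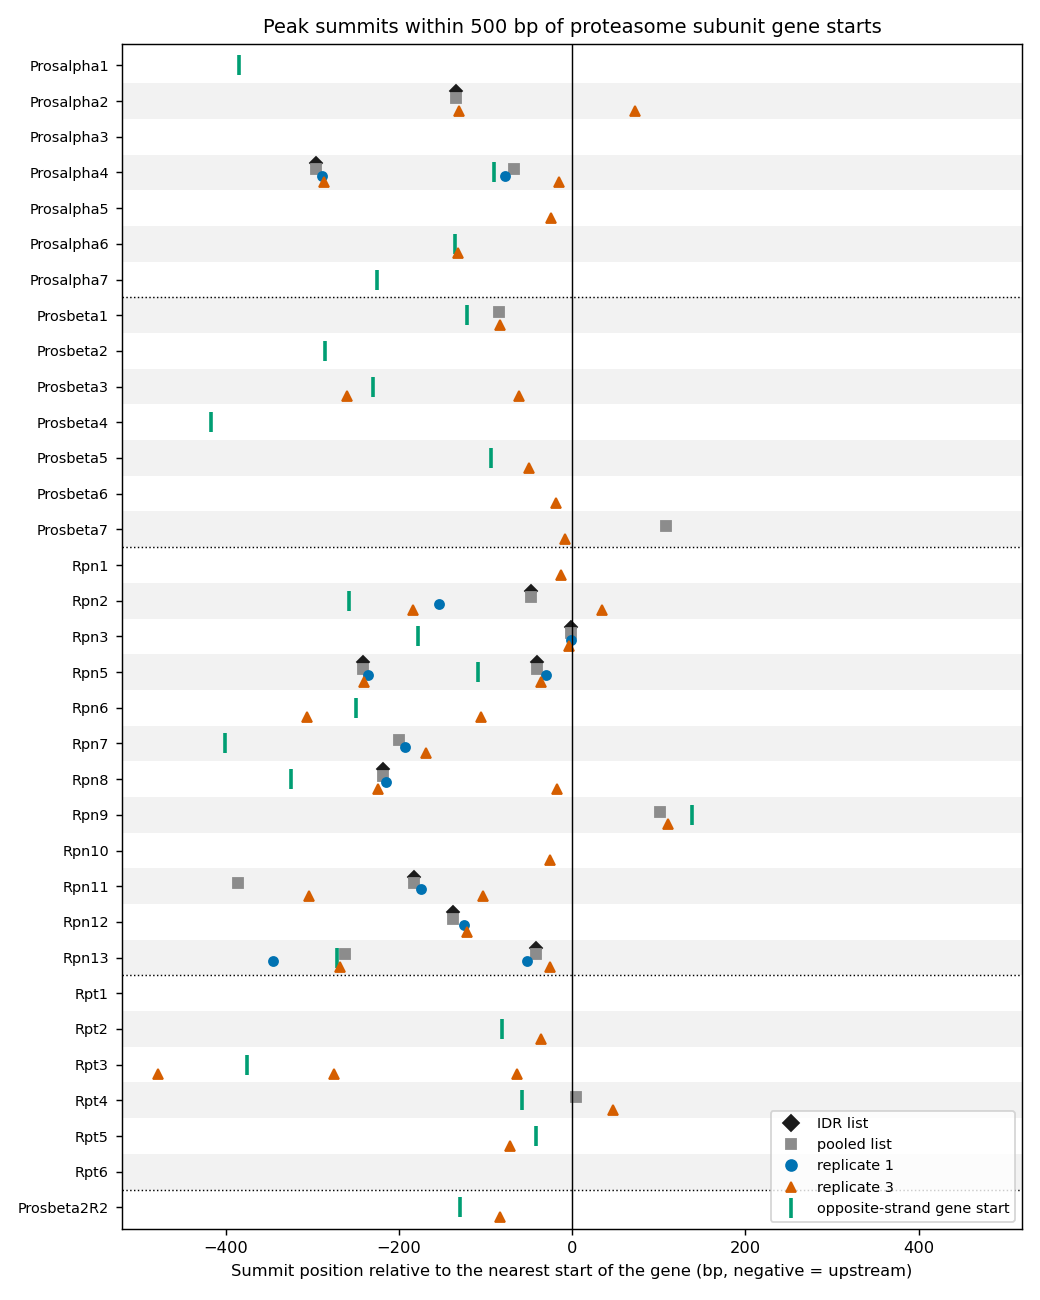
Position of each summit within 500 bp of a start, in bp from the nearest start of the gene (negative is upstream), for the 32 main subunits and the 1 bound paralog. Black diamonds are the IDR list, grey squares the pooled list, blue circles replicate 1 and orange triangles replicate 3, and green bars mark the nearest protein-coding start on the opposite strand; most marks lie upstream, the Rpn rows hold most of the black and blue marks, and 7 main rows hold no summit.

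Neighbouring genes limit what a summit can be assigned to. In the IDR list 7 of the 10 summits at proteasome genes lay within 500 bp of another protein-coding start as well, and 3 of these were nearer to the other gene. In replicate 3 it was 27 of 37, with 15 nearer to the other gene. Main subunits with an opposite-strand start within 500 bp were bound in 6 of 21 cases in the IDR list (28.6%, 11.3 to 52.2) and those without in 3 of 11 (27.3%, 6.02 to 61.0). Over all protein-coding genes the shares were 35.9% with and 15.9% without such a start, and the wide intervals of the main subunits hold both. In the other lists the main subunits with such a start had the higher share, 33.3% and 18.2% in replicate 1, 47.6% and 36.4% in the pooled list and 81.0% and 72.7% in replicate 3. All protein-coding genes showed the same order in these lists. Their shares were 40.1% and 27.9% in replicate 1, 50% and 31.1% in the pooled list and 68.3% and 36.1% in replicate 3. The number of starts gave every gene more or fewer windows. Main subunits with 1 start were bound in 6 of 22 cases (27.3%), beside 15.5% of all genes with 1 start, and those with more starts in 3 of 10 (30.0%), beside 37.9%.

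Several genes had summits in steps of about 200 bp. In replicate 3, 10 of the 26 bound genes had more than 1 summit within the window, with gaps of 199 to 342 bp, and the IDR summits at Rpn5 were 200 bp apart. The smallest gap between neighbouring summits was 199 bp in every list, so summits closer than this do not occur in the files. The peaks were also of a set width in most cases, 430 bp for 74.9% of replicate 3 peaks and 416 bp for 75.9% of replicate 1 peaks, so the width of a peak says little about these genes.

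Motifs were read in the reference sequence from 250 bases before to 50 after the annotated 5′ end of each gene, on both strands. The DNA replication-related element (DRE, TATCGATA), the site of DREF at many housekeeping promoters of flies, was in 12 of 32 main promoters (37.5%, 21.1 to 56.3), in 0 of 16 paralog promoters, and in 9.36% of all 13945. Core promoter motif 1 (GGTCACACT), the site of M1BP, was in 5 of 32 main promoters (15.6%, 5.28 to 32.8), in 0 of 16 paralog promoters, and in 6.05% of all. For either motif the interval of 0 of 16 was 0 to 20.6%, which holds the share of all promoters. A lack in paralogs is thus not shown. The interval of main subunits holds the share of all promoters for motif 1 and lies above it for the DRE. Matches of 8 DRE promoters and of the 5 motif 1 promoters are shown, because they were found in main subunits and in no paralog, with 16 bases on each side and the motif in capitals; 1 window is cut where the promoter window ends. In the DRE group the lines are as follows.
Rpt5: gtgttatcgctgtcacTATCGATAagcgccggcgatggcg
Rpn9: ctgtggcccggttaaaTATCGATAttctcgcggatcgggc
Rpn7: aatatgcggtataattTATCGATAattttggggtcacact
Prosbeta2: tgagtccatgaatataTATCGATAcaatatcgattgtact
Rpn12: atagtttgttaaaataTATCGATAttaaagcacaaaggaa
Prosbeta6: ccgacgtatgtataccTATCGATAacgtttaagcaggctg
Prosalpha6: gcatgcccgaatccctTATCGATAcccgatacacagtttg
Rpn3: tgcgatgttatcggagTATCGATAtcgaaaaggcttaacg
They lie at chr3R:23752814-23752853, chr3R:23733413-23733452 (minus strand), chr3R:22462028-22462067 (minus strand), chr3L:14999925-14999964, chr3L:16582796-16582835, chr3L:16610439-16610478 (minus strand), chr2L:10221319-10221358 and chr2L:19051577-19051616. In the motif 1 group the windows were these.
Prosalpha2: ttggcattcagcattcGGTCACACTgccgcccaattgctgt
Prosbeta3: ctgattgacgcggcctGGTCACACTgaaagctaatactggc
Rpn7: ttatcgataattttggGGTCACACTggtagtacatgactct
Rpn1: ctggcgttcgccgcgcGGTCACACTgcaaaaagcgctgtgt
Prosalpha4: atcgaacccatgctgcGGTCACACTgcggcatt
They lie at chr3R:12431322-12431362, chr3R:9006418-9006458 (minus strand), chr3R:22462012-22462052 (minus strand), chr3L:19915034-19915074 and chrX:16276287-16276319. Rpn7 was the 1 promoter that held both. Of the 12 DRE matches, 8 lay within 100 bp of the start of the proteasome gene. Some matches lay near the opposite-strand start of a neighbour instead. The DRE of Prosbeta1 began 121 bp before its start, and Rrp42 starts 121 bp away. The DRE of Rpn3 began 197 bp before its start, with l(2)37Bb at 178 bp. Motif 1 of Prosbeta3 began 216 bp before its start, with Iru at 230 bp.

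A main gene with a DRE and its testis copy are printed as an example, chosen because the main gene holds the motif, which 20 of the 32 main subunits do not. Prosalpha4 and its copies Prosalpha4T1 and Prosalpha4T2, for instance, all lack it. Prosalpha6 is an alpha ring subunit, and Prosalpha6T is its copy known for its part in spermatogenesis. The lines give 120 bases before to 20 after each start, with the DRE of Prosalpha6 in capitals.
Prosalpha6: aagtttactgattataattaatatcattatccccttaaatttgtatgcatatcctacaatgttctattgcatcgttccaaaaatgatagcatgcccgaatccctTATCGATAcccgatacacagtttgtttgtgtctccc
Prosalpha6T: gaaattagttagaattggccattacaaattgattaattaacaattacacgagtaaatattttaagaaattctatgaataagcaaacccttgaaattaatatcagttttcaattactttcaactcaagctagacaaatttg
They lie at chr2L:10221231-10221370 and chr2L:13231919-13232058, both on the plus strand. Prosalpha6 had a replicate 3 summit 132 bp upstream with rank 7615, 3 bp from the start of Npc1a, and was not bound in the other 3 lists. Prosalpha6T had no summit in any list. The nearest IDR summit was 5555 bp from Prosalpha6 and 19319 bp from Prosalpha6T.

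DRE matches occurred in both bound and unbound main subunits. The motif window sits at the 5′ end of the gene, while a gene counts as bound at any of its starts. At Rpn8, for instance, the IDR summit lay at an internal start, outside the motif window. Of the 9 bound in the IDR list 3 had a DRE (33.3%, 7.49 to 70.1), and of the 23 unbound 9 did (39.1%, 19.7 to 61.5), and these intervals are too wide to rank the groups. Over all protein-coding genes the share was 12.3% in bound genes (11.2 to 13.6) and 8.55% in unbound genes (8.03 to 9.09). In replicate 3 it was 10 of 25 bound main subunits (40.0%) and 2 of 7 unbound (28.6%). Within 50 bp of the 10 IDR summits at proteasome genes there were 0 exact DRE matches, and 1.20% of the 2661 IDR summits at protein-coding starts held one. Near matches were not counted in either set. The Rpn2 window, for example, holds TATCGATG from its summit base and CATCGATA further on, each 1 base from the DRE. At Rpn3, for example, the DRE began 197 bp before the start and the summit lay 1 bp before it.

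Of the other 9 motifs searched, core promoter motif 7 (CANCNCTA) was in 9 of 32 main promoters (28.1%) and 15.6% of all. The core of the antioxidant response element (TGACNNNGC), bound by Cnc with Maf-S, was in 5 of 32 (15.6%) and 8.63% of all, and in Prosbeta3 and Rpn1 a match overlapped motif 1. The heat shock element core (GAANNTTC) was in 1 of 32 and 9.37% of all, and GAGAGAG, the site of GAGA factor, in 0 of 32 and 5.87%. The E-boxes CACGTG and CAGCTG were in 0 and 1 of 32, beside 4.20% and 17.7% of all. The Zelda site CAGGTAG was in 1 of 32, beside 1.64%. The TATA box (TATAAA) was in 13 of 32 (40.6%) and 45.8% of all, and the short initiator TCAGT in 18 of 32 (56.2%) and 51.5%. The GC content of the promoters had a median of 33.5% for main subunits, 32.7% for paralogs and 38.0% for all genes, and its part in the motif counts was not tested.

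**Figure D4:**
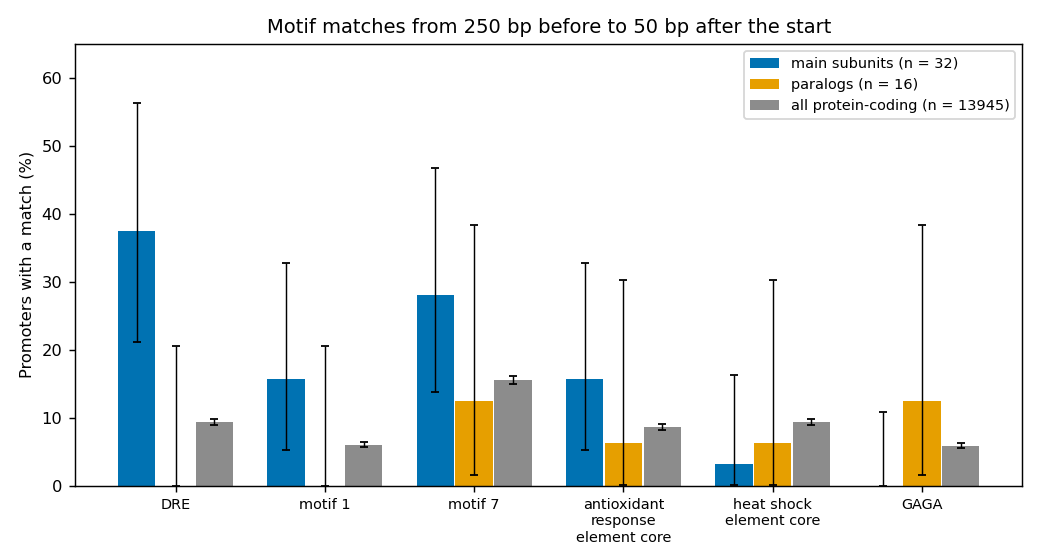
Share of promoters in percent that hold a motif from 250 bp before to 50 bp after the start, for main subunits (blue, n = 32), paralogs (yellow, n = 16) and all protein-coding genes (grey, n = 13945). Error bars are exact 95% intervals that cover counting error only; the DRE bar stands at 37.5% for main subunits, with no match in paralogs and 9.36% over all genes.

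Genes that build, assist or feed the proteasome were read from a separate list of 26. In the IDR list 10 were bound (38.5%, 20.2 to 59.4), beside 21.5% of all protein-coding genes, a share inside that interval. Replicate 1 had 8 (30.8%), beside 31.3%, and replicate 3 had 22 (84.6%, 65.1 to 95.6), beside 45.1%. At 6 of the 10 a second gene shared the IDR summit by the same 500 bp rule, as with Lkb1 at CG9588 and kuk at Keap1. Of the assembly and regulatory factors, Pomp, the core maturation chaperone, had a signal of 445 at 232 bp upstream, PI31 had 307, its partner ntc (the F-box protein Nutcracker) 377, and CG9588, the counterpart of the human base chaperone PSMD9, 431. The ubiquitin group held the activating enzyme gene Uba1 and the ubiquitin genes Ubi-p63E, Ubi-p5E, RpL40 and RpS27A. Of these 5, Ubi-p63E and Ubi-p5E were bound with signals of 415 and 212. The shuttle factor Ubqn was bound with 189.6. The transcription factor gene cnc had the highest signal of the list, 1048 with rank 1579, at 1 of its 10 starts, and its partner maf-S and its inhibitor Keap1 had 200.4 and 232. None of the 3 associated enzymes (Usp14, Uch-L5 and Txl) and none of the 4 segregase genes (TER94, Npl4, Ufd1 and p47) was bound in the IDR list.

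Other large complexes were counted in the same way. Of 92 cytoplasmic ribosomal protein genes 59 were bound in the IDR list (64.1%, 53.5 to 73.9), of 73 mitochondrial ribosomal protein genes 23 (31.5%, 21.1 to 43.4), and of 8 genes of the CCT chaperonin 1 (12.5%, 0.316 to 52.7). The interval of the 32 main proteasome subunits, 13.7 to 46.7%, lay below that of the cytoplasmic ribosomal proteins and overlapped the others. The share of all protein-coding genes, 21.5%, lay inside the interval of the main subunits and below that of the cytoplasmic ribosomal proteins. In replicate 3 the counts were 79 of 92, 42 of 73 and 7 of 8, beside 45.1% of all protein-coding genes.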

How the data were processed

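Anti-GFP ChIP-seq of 2 biological replicates was deposited as 4 narrowPeak lists on dm6. Per the README files that the authors deposited, replicate 1, replicate 3 and their pooled reads were each called against 1 shared control file, and the IDR step then combined the results into 1 thresholded list. The aligner, caller and IDR program, with their versions and thresholds, were not given in the sources used here. The authors' signal (column 7) ranked the peaks. The deposited −log10 q-value (column 9) holds its highest value at many peaks and was not used to rank. It was not used to filter either, and the replicate and pooled lists also hold peaks with low values. A gene called bound in them may therefore rest on a weak peak. The authors' summit offset (column 10) gave the summit.

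Genes came from Ensembl release 115 (BDGP6.54), and all 48 proteasome genes had the same coordinates in RefSeq, whose Release 6 genome gave the sequences. No condition could be tested with 1 group, so shares are given with exact (Clopper-Pearson) 95% intervals from scipy 1.17.1, and a count of 0 with the limit of 3 counts. The genes of the family, the 26 pathway genes, the complexes and the motifs were chosen with earlier results of these data known. Every proteasome gene is accounted for, those bound in the IDR list with their values. Counting was tested on simulated summits. The alternatives were other windows, any base of the peak, the 5′ end alone, a stronger threshold, the pooled list, the nearest start, and each replicate alone. The pathway gene Ufd1-like was matched as Ufd1.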

Additional observations from a re-analysis of the deposited data

How the results depend on the processing

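Over 6 results and their alternatives, 42 values stayed within 1.5 times the count (or within 1 SD between replicates for the median position) and 24 moved. The 42 include paralog counts that stayed at 0, where no ratio exists. Counts for all members and for main subunits were equal except with all replicate 3 peaks, so the values are not independent. With the 4828 strongest IDR peaks, 3 of the 48 genes were bound, 3 main, 0 core and 3 regulatory, beside 12.6% of all protein-coding genes. With all pooled peaks it was 14 in all, 14 main and 4 core, and the median position was -57 bp. Within 200 bp, 1 core gene was bound and the median position was -47 bp, the same 2 values as when each summit counted for the nearest start alone. With 1 replicate left out and the 9657 strongest peaks of the other taken, the ranges were 6 to 15 genes in all and for main subunits, 1 to 4 for the core and 5 to 11 for the regulatory particle, higher each time without replicate 1. The share of all protein-coding genes moved as well, to 26.7% without replicate 1 and 18.6% without replicate 3. All peaks of each replicate list were an alternative chosen after seeing the data. Replicate 3 gave 26 in all, 25 main, 10 core, 16 regulatory and 1 paralog with a median of -30.5 bp, and replicate 1 gave 1 core gene. The causes were not tested beyond the number of peaks each setting holds. The paralog count was 0 under every other alternative, windows, thresholds and lists included. No paired analysis was possible because there is 1 group. The main limits are no untagged line analysed here, an unknown depth, 2 replicates that differ at these genes, and starts shared with neighbours.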

Other observations

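Some of the strong IDR peaks near proteasome genes lay at the starts of other genes. Of the 48 genes, 34 (70.8%) had an IDR peak within 10000 bp, beside 67.8% of all protein-coding genes, and for 9 of the 48 (18.8%) the strongest of these ranked 1000 or better, beside 17.4%, so both shares were near the background. The 3 named here were chosen after their values were seen. Next to the ATPase gene Rpt5, a peak with a signal of 3869 and rank 105 at chr3R:23757869-23758427 lay 5319 bp from the start of Rpt5 and 144 bp from that of PTPMT1, which encodes a mitochondrial phosphatase. Next to Rpt6, a peak with a signal of 1662 and rank 796 lay 3448 bp from Rpt6 and 204 bp from the start of SLIRP1. Next to Rpn5, a peak of rank 118 lay 2285 bp away and 101 bp from the start of Hpf1, far stronger than either summit at Rpn5 itself, which ranked 2993 and 6688.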
